A study of Mus musculus with 9 samples.

Results

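The 10 genes described here are Trp53, its targets Cdkn1a, Mdm2, Ccng1, Trp53inp1, Bbc3, Pmaip1 and Bax, and the apoptosis regulators Bcl2 and Bcl2l11. They were taken by symbol from a table of 23453 gene symbols, and each was present once. RNA was measured by bulk RNA-seq in 9 libraries of mouse cells, 3 from each of 3 states. EpiLCs (epiblast-like cells) were made from naive ESCs over 48 h with Activin, FGF2 and 1% KSR, a serum replacement. aEpiLCs were EpiLCs kept for a further 24 h in N2B27, which the labels call basal and the study's methods give with 1% KSR and without Activin. pEpiLCs were EpiLCs kept for the same 24 h in N2B27 with 1% KSR and Activin A at 20 ng/ml. Their medium also held CHIR99021, an agonist of the WNT pathway, at 3 µM. The methods list FGF2 for neither later state. The study calls the cells wild-type, names no cell line for these libraries and does not say whether replicates were separate cultures. The p-values therefore measure the spread between these libraries, which may be technical. The later states differ from EpiLC in time as well as in medium, and these cannot be told apart in the comparisons with EpiLC.

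p53, the product of Trp53, is a transcription factor that is stabilised by DNA damage and other stress. It raises the transcription of Cdkn1a, whose product p21 inhibits cyclin-dependent kinases, and of several genes that promote mitochondrial apoptosis. In that pathway BH3-only proteins such as PUMA, NOXA and BIM bind prosurvival proteins such as BCL2, and the effectors BAX and BAK permeabilise the outer mitochondrial membrane. MDM2 closes a feedback loop, being both a target of p53 and the ubiquitin ligase that marks p53 for destruction. Pluripotent epiblast cells are known for a low threshold for apoptosis.

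Total counts lay between 20560600 and 23417900 per library. Levels are given as CPM (a gene's count relative to the total of its library, scaled by TMM over the 9 libraries), and levels of different genes are compared only as CPM per kb of exon. One library stood apart. pEpiLC replicate 1 differed more than 4-fold at 152 and 157 genes from pEpiLC replicates 2 and 3, which differed from each other at 13 genes, and replicates of the other states differed at 9 to 12. The summed level of 5 posterior markers (T, Mixl1, Nanog, Eomes and Fgf8) was 835 to 2341 CPM in pEpiLC, 20.3 to 34.8 CPM in aEpiLC and 22.8 to 25.7 CPM in EpiLC. That of 4 anterior markers (Sox2, Sox1, Pax6 and Sox3) was 17.7 to 51.3, 144 to 165 and 100 to 117 CPM in the same order. For 5 epiblast markers (Pou5f1, Fgf5, Otx2, Pou3f1 and Dnmt3b) it was 1775 to 2959, 3790 to 3992 and 4010 to 4358 CPM, lowest in pEpiLC replicate 1. Fgf5 alone of these was highest in pEpiLC. The part of the epiblast markers in the differences below was not tested. The 6 extraembryonic endoderm markers in the table, of 8 listed, summed to at most 19.7 CPM, with Apoa1 and Sox7 at 0.282 CPM or less in every library. Dab2 made up most of that sum outside pEpiLC replicate 1 and moved with the state, at 8.15 to 8.88 CPM in EpiLC, 11.9 to 13.7 CPM in aEpiLC and 5.19 to 6.47 CPM in pEpiLC, and its part in the differences below was not tested. In pEpiLC replicate 1 the sum held 12.4 CPM of Gata4, against 0.435 and 0.322 CPM in replicates 2 and 3. The 6 fibroblast markers in the table, of 8 listed, summed to at most 24.6 CPM. Of these Dcn moved with the state, at 4.81 to 7.25 CPM in EpiLC, 1.31 to 2.11 CPM in aEpiLC and 0.184 to 0.304 CPM in pEpiLC. Col1a2 was at 1.32 to 1.96, 2.20 to 3.33 and 4.17 to 10.2 CPM in the same order. Thy1, the largest part of the sum outside pEpiLC replicate 1, was at 8.25 to 11.4, 13.5 to 17.1 and 7.39 to 7.96 CPM. Col1a1 was at 2.50 to 3.16, 1.78 to 2.92 and 1.35 to 1.47 CPM. The part of these genes in the differences below was not tested. Messenger RNAs of the mitochondrial genome summed to 15742 to 17206 CPM in EpiLC, 20978 to 22046 CPM in aEpiLC and 21906 to 23656 CPM in pEpiLC. This sum moved with the state, and its part in the differences below was not tested.

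The 10 genes did not move as a block. Between pEpiLC and aEpiLC, the states separated by Activin A and CHIR99021, Cdkn1a was higher in pEpiLC, and the BH3-only genes Bbc3 and Bcl2l11 were lower. Trp53 and Ccng1, which encodes the p53 target cyclin G1, passed the test in neither direction in this comparison, nor did Mdm2, Trp53inp1, Pmaip1, Bax and Bcl2. Against EpiLC, both later states had less Pmaip1 and Bax RNA and more Bcl2, Cdkn1a and Ccng1 RNA. The Cdkn1a call in aEpiLC and the Ccng1 call in pEpiLC did not hold without every single library. The libraries are of bulk cells, so a change in the number of expressing cells and one in RNA per cell cannot be told apart.

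**Figure D1:**
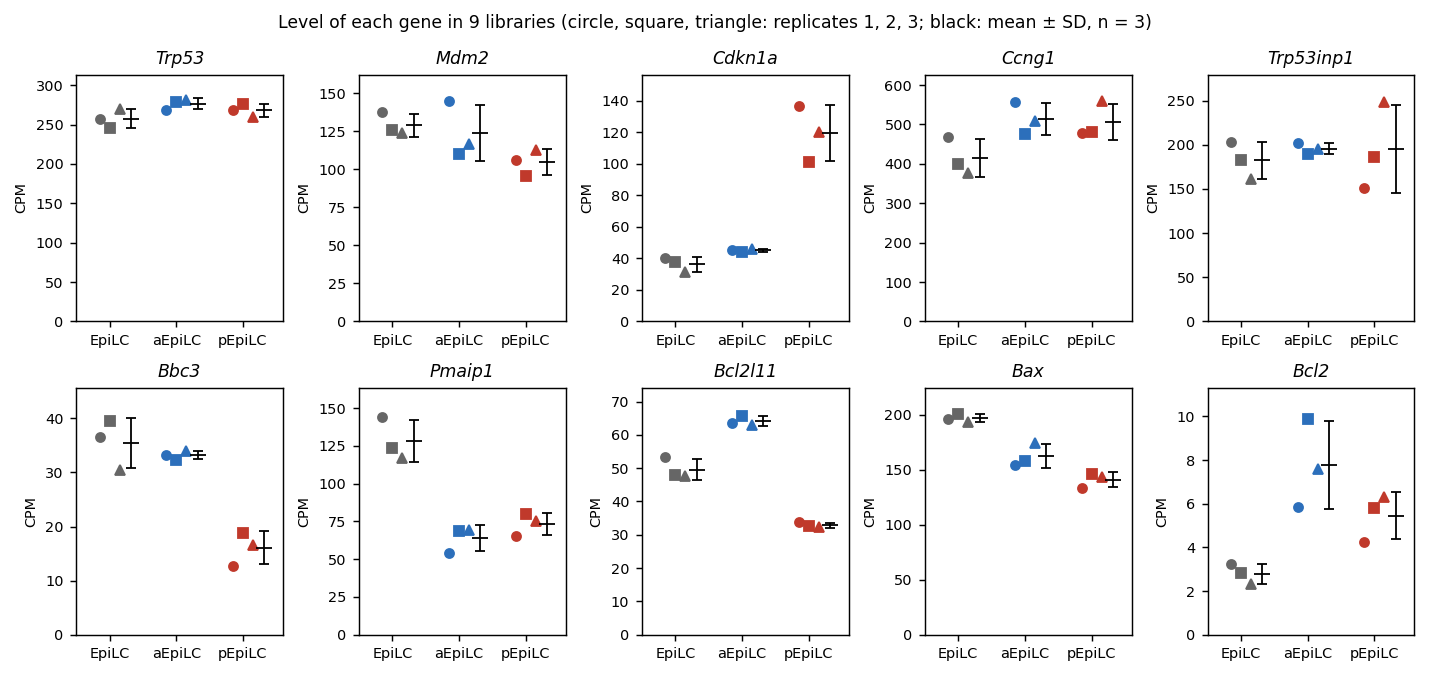
Level of each of the 10 genes in CPM (vertical axes, linear from 0) in the 9 libraries, with replicates 1, 2 and 3 as circle, square and triangle and the mean ± SD (n = 3) in black. Cdkn1a in pEpiLC lies at 101 to 137 CPM, above the 31.1 to 45.9 CPM of the other states, while Bbc3 and Bcl2l11 lie lowest in pEpiLC and Trp53 stays between 246 and 282 CPM.

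Trp53 itself lies at chr11:69580359-69591873 on the plus strand (GRCm38, ENSMUSG00000059552.13). Its level was 257, 246 and 269 CPM in the EpiLC libraries, 269, 278 and 282 CPM in aEpiLC and 269, 276 and 259 CPM in pEpiLC. The states overlapped in every pair. The log2 difference between pEpiLC and aEpiLC was −0.04 (95% interval −0.18 to 0.09), and edgeR's quasi-likelihood test gave a Benjamini-Hochberg adjusted p of 0.660. Against EpiLC the log2 difference was 0.10 in aEpiLC (−0.02 to 0.23, adjusted p = 0.159, same test) and 0.08 in pEpiLC (−0.05 to 0.21, adjusted p = 0.274). A pseudogene of Trp53, Trp53-ps, has a row of its own, so reads shared with it may have been divided between the copies. These are levels of RNA, and p53 protein, at which the pathway is mainly controlled, was not measured in these files.

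Mdm2 (chr10:117688875-117710758, minus strand, ENSMUSG00000020184.15) was at 138, 126 and 124 CPM in EpiLC, 145, 110 and 116 CPM in aEpiLC and 106, 95.8 and 113 CPM in pEpiLC. The pEpiLC libraries lay below all EpiLC libraries and overlapped those of aEpiLC. Mdm2 was lower in pEpiLC than in EpiLC by a log2 difference of −0.28 (SE 0.0776, edgeR adjusted p = 0.0232). That call was lost without EpiLC replicate 1, EpiLC replicate 2 or pEpiLC replicate 2, with edgeR adjusted p-values of 0.0873, 0.0589 and 0.0653. Against aEpiLC its log2 difference was −0.24, with an interval of −0.51 to 0.03 (adjusted p = 0.203).

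Cdkn1a (chr17:29090976-29100727, plus strand, ENSMUSG00000023067.14) encodes p21, which can arrest the cell cycle. It was at 40.2, 37.7 and 31.1 CPM in the EpiLC libraries, 45.6, 44.0 and 45.9 CPM in aEpiLC and 137, 101 and 120 CPM in pEpiLC. All pEpiLC libraries lay above all others, and the aEpiLC libraries lay above those of EpiLC. Cdkn1a was 2.64-fold higher in pEpiLC than in aEpiLC (log2 1.40, SE 0.112, 95% interval 1.14 to 1.66, edgeR adjusted p = 0.000361) and 3.34-fold higher than in EpiLC (log2 1.74, SE 0.135, adjusted p = 0.000152). Both differences passed the test under all 15 settings tried, with adjusted p-values of 6.63e-26 to 0.00558 against aEpiLC. Without pEpiLC replicate 1, which had the highest level, the log2 differences were 1.3 and 1.64. Between aEpiLC and EpiLC the log2 difference was 0.32 (SE 0.0884, adjusted p = 0.00984), and it did not pass without EpiLC replicate 3 (adjusted p = 0.0557). The mean level of Cdkn1a per kb of exon was 0.402 ± 0.0367 times that of Mdm2 in EpiLC, 0.528 ± 0.0684 times in aEpiLC and 1.63 ± 0.184 times in pEpiLC (SD, n = 3).

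Since most of these genes are targets of p53, the promoters were searched for the p53 response element. This element is made of 2 half-sites of 10 bases separated by 0 to 13 bases. RefSeq (GRCm38.p6) promoter windows of 300 bases, from 250 before to 50 after a transcript start, were at hand for 8 of the 10 genes. Trp53inp1 and Pmaip1 had no entry. Cdkn1a and Bcl2l11 had 2 windows each and Bbc3 had 3, and only the window with the most matching bases was kept for each gene. The half-site is its own reverse complement in form, so one search covers both strands, and a match was scored by the number of its 20 bases that match the half-site consensus. The sequences below are those of the genes with the most matching bases and of Bbc3, which moved opposite to Cdkn1a, each 5′ to 3′ on the strand of the gene with the half-sites in capitals and 25 bases on either side.
Cdkn1a: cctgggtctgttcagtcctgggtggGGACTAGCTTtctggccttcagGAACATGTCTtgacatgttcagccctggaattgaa
Ccng1: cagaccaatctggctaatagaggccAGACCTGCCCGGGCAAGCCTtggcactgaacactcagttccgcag
Bax: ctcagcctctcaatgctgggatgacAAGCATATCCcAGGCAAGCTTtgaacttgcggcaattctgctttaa
Bbc3: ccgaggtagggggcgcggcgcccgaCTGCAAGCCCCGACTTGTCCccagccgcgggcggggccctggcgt

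The Cdkn1a sequence spans chr17:29090881-29090962 (plus strand). Its half-sites matched at 20 of 20 bases with 12 bases between them, and lay 73 to 42 bases before the transcript start of that window. A version without bases between the half-sites, overlapping this one, matched at 19 of 20. Of all 32851 promoter windows, 0.0731% held a match of 20 bases and 1.09% a match of at least 19. Counting the best window of each of 27025 genes, the shares were 0.074% and 1.24%. Ccng1 (chr11:40755437-40755506, minus strand) and Bax (chr7:45467065-45467135, minus strand) each matched at 19 bases, 195 to 176 and 212 to 192 bases before the start. Bbc3 (chr7:16309461-16309530, plus strand) matched at 17, as did Trp53 and Bcl2l11, and Mdm2 and Bcl2 at 16. Matches of at least 17 and 16 bases were held by 45.1% and 89.3% of all windows. By the best window of each gene the shares were 48.5% and 90.7%, so those counts do not set these promoters apart. Sequence outside the windows was not searched, so an element elsewhere in these genes would have been missed. The genes with at least 19 matching bases differed in direction, Cdkn1a being higher, Bax lower and Ccng1 higher in pEpiLC than in EpiLC. A match describes letters in a window, and binding of p53 was not measured in these files.

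Ccng1 (chr11:40748552-40755311, minus strand, ENSMUSG00000020326.7) was at 469, 399 and 377 CPM in EpiLC, 558, 476 and 510 CPM in aEpiLC and 479, 482 and 560 CPM in pEpiLC. Both later states lay above EpiLC without overlap, by a log2 difference of 0.31 in aEpiLC (SE 0.0813, edgeR adjusted p = 0.00645) and 0.31 in pEpiLC (SE 0.0976, adjusted p = 0.0335). The pEpiLC call was lost without EpiLC replicate 2 or 3 or pEpiLC replicate 3, with edgeR adjusted p-values of 0.117, 0.126 and 0.0943. The log2 difference of Ccng1 between pEpiLC and aEpiLC was −0.02 (95% interval −0.23 to 0.19). Trp53inp1 (chr4:11156431-11174379, plus strand, ENSMUSG00000028211.11), a target of p53 that acts in stress responses and autophagy, was at 203, 183 and 161 CPM in EpiLC, 202, 189 and 195 CPM in aEpiLC and 151, 186 and 249 CPM in pEpiLC. The pEpiLC libraries spanned the range of both other states, and pEpiLC replicate 1 was the lowest of the 9 libraries. Trp53inp1 passed the test in no comparison, with intervals of −0.06 to 0.27, −0.28 to 0.52 and −0.37 to 0.37 for aEpiLC against EpiLC, pEpiLC against EpiLC and pEpiLC against aEpiLC. Without pEpiLC replicate 1 it was higher in pEpiLC than in EpiLC (log2 0.28, edgeR adjusted p = 0.0342).

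The BH3-only genes each had a pattern of their own. Bbc3 (chr7:16308393-16318205, plus strand, ENSMUSG00000002083.13) encodes PUMA, a major mediator of apoptosis downstream of p53. It was at 36.6, 39.5 and 30.5 CPM in EpiLC, 33.2, 32.4 and 33.9 CPM in aEpiLC and 12.7, 18.8 and 16.7 CPM in pEpiLC. Every pEpiLC library lay below all of the others. Bbc3 was 2.06-fold lower in pEpiLC than in aEpiLC (log2 −1.04, SE 0.142, edgeR adjusted p = 0.00364) and 2.17-fold lower than in EpiLC (log2 −1.12, SE 0.160, adjusted p = 0.00159). Without pEpiLC replicate 1 the log2 differences were −0.90 and −0.97, which passed the test at less than 2-fold. Between aEpiLC and EpiLC the log2 difference was −0.10 (95% interval −0.29 to 0.10, adjusted p = 0.422). The level of Cdkn1a per kb of exon was 0.613 ± 0.0429 times that of Bbc3 in EpiLC and 0.814 ± 0.00509 times in aEpiLC (SD, n = 3). In the pEpiLC libraries it was 6.41, 3.23 and 4.31 times that of Bbc3.

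Pmaip1 (chr18:66458533-66465565, plus strand, ENSMUSG00000024521.8) encodes NOXA, a BH3-only protein that binds MCL1. It was at 144, 123 and 117 CPM in EpiLC, 54.1, 68.4 and 69.2 CPM in aEpiLC and 65.3, 79.9 and 75.0 CPM in pEpiLC. The EpiLC libraries lay above all of the others, and those of aEpiLC and pEpiLC overlapped. Pmaip1 was 2.00-fold lower in aEpiLC than in EpiLC (log2 −1.0, SE 0.0979, edgeR adjusted p = 2.88e-06) and 1.72-fold lower in pEpiLC (log2 −0.78, SE 0.101, adjusted p = 0.00107). The first of these lay at the 2-fold limit and was −0.91 without EpiLC replicate 1 and −0.89 without aEpiLC replicate 1. The log2 difference between the later states was 0.20 (95% interval −0.07 to 0.47, adjusted p = 0.290).

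Bcl2l11 (chr2:128126038-128162547, plus strand, ENSMUSG00000027381.16) encodes BIM, a BH3-only protein that also responds to loss of growth factor signalling. Its levels were 53.2, 47.8 and 47.5 CPM in EpiLC, 63.6, 65.7 and 62.9 CPM in aEpiLC and 33.7, 32.5 and 32.2 CPM in pEpiLC. The states did not overlap, and aEpiLC and pEpiLC lay on opposite sides of EpiLC. Bcl2l11 was higher in aEpiLC than in EpiLC (log2 0.37, SE 0.0672, edgeR adjusted p = 0.000513) and lower in pEpiLC than in EpiLC (log2 −0.57, SE 0.0765, adjusted p = 0.00123). It was 1.95-fold lower in pEpiLC than in aEpiLC (log2 −0.96, SE 0.0697, adjusted p = 0.000290), and all 3 differences passed the test under all 15 settings.

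Of the effectors and prosurvival genes, Bax and Bcl2 moved away from EpiLC in opposite directions. Bax (chr7:45461697-45466898, minus strand, ENSMUSG00000003873.11) was at 196, 201 and 194 CPM in EpiLC, 154, 158 and 175 CPM in aEpiLC and 133, 146 and 143 CPM in pEpiLC. The order EpiLC, aEpiLC, pEpiLC held without overlap between libraries. Bax was lower than in EpiLC by a log2 difference of −0.28 in aEpiLC (SE 0.0620, edgeR adjusted p = 0.00257) and −0.46 in pEpiLC (SE 0.0552, adjusted p = 0.000815). Between pEpiLC and aEpiLC its log2 difference of −0.20 missed the threshold (adjusted p = 0.0964), and it passed when all 9 libraries were fitted together (adjusted p = 0.0429). Bax shares 192 exonic bases with Gm45808 on the same strand, which had at most 1.85 CPM in any library.

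Bcl2 (chr1:106538178-106714274, minus strand, ENSMUSG00000057329.7), which encodes the prosurvival protein that gives the family its name, was low in all states. It was at 3.22, 2.83 and 2.33 CPM in EpiLC, 5.86, 9.90 and 7.59 CPM in aEpiLC and 4.24, 5.82 and 6.30 CPM in pEpiLC. Both later states lay above EpiLC, and they overlapped each other. Bcl2 was 2.80-fold higher in aEpiLC than in EpiLC (log2 1.48, SE 0.211, 95% interval 1.03 to 1.94, edgeR adjusted p = 7.85e-05) and 1.99-fold higher in pEpiLC (log2 0.99, SE 0.220, adjusted p = 0.00943). The pEpiLC difference passed the 2-fold limit without EpiLC replicate 1 or pEpiLC replicate 1, at log2 1.10 and 1.14. Its log2 difference between pEpiLC and aEpiLC was −0.51, with an interval of −1.07 to 0.04. An antisense gene, D630008O14Rik, shares 558 exonic bases with Bcl2 and one of another type, AC167363.2, shares 273 with Cdkn1a on the opposite strand. Neither has a row in the table and strandedness is not given in the sources used here, so reads from them cannot be told apart from those of Bcl2 and Cdkn1a.

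The plot of differences between states gives these genes side by side. Of the 10, 6 passed the test between aEpiLC and EpiLC, 4 higher and 2 lower. Of 15301 genes tested in that comparison 46.6% passed, 24.0% higher and 22.6% lower. In pEpiLC against EpiLC 8 of the 10 passed, 3 higher and 5 lower, where 44.2% of 15288 genes passed, 22.8% higher and 21.4% lower. In pEpiLC against aEpiLC 3 passed, Cdkn1a higher and Bbc3 and Bcl2l11 lower, where 15.6% of 15198 genes passed, 6.28% higher and 9.30% lower. Bcl2 (higher) and Pmaip1 (lower) were also past 2-fold between aEpiLC and EpiLC, as were 12.5% of genes tested, 7.25% higher and 5.24% lower. Cdkn1a (higher) and Bbc3 (lower) were past 2-fold in both comparisons of pEpiLC, in which 15.8% (7.71% higher and 8.13% lower, against EpiLC) and 7.29% (2.55% higher and 4.74% lower, against aEpiLC) of genes were. The number past 2-fold was 1 in place of 2 without EpiLC replicate 1 or aEpiLC replicate 1 in the first comparison, and without pEpiLC replicate 1 in the last. In pEpiLC against EpiLC it was 3 without EpiLC replicate 1. The libraries of the states did not overlap at 6, 8 and 4 of the 10 genes, where the background was 56.3%, 58.7% and 38.7% of genes tested. The median log2 difference of the 10 was 0.10, −0.10 and −0.12, and that over all genes tested was 0.00226, 0.02 and 0.01. The comparisons share libraries, so the differences from EpiLC are not independent of each other.

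**Figure D2:**
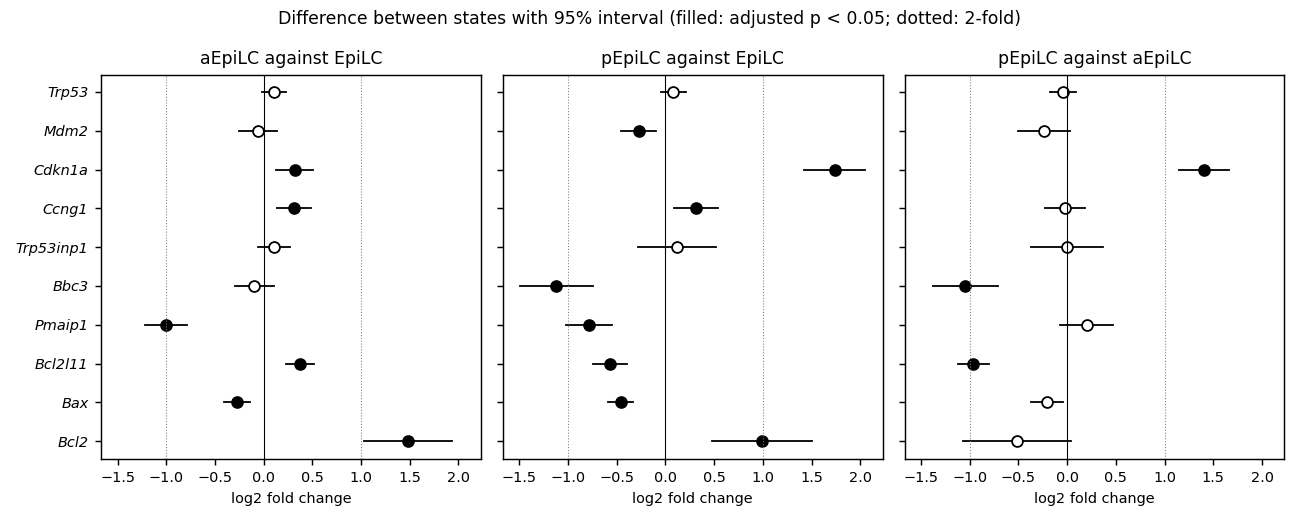
Log2 fold change of each of the 10 genes with its 95% interval (horizontal axes) in the 3 comparisons, with filled points for an adjusted p below 0.05 and dotted lines at 2-fold. In pEpiLC against aEpiLC the filled points are Cdkn1a at 1.40, Bbc3 at −1.04 and Bcl2l11 at −0.96, and the intervals of Trp53, Mdm2, Ccng1, Trp53inp1, Pmaip1 and Bcl2 span 0.

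Per kb of exon, the order of mean levels in EpiLC was Bax at 125 CPM per kb, Ccng1 at 118, Trp53 at 63.7, Pmaip1 at 46.9, Trp53inp1 at 28.2, Mdm2 at 25.4, Bbc3 at 16.7, Cdkn1a at 10.2, Bcl2l11 at 6.17 and Bcl2 at 0.305. Bax and Ccng1 (125 ± 2.25 and 118 ± 13.7, SD, n = 3) did not differ beyond their spread, nor did Trp53inp1 and Mdm2 (28.2 ± 3.21 and 25.4 ± 1.47). In pEpiLC Cdkn1a, at 33.6 ± 4.96, stood after Ccng1, Bax and Trp53, beside Trp53inp1 at 30.2 ± 7.66 and Pmaip1 at 26.9 ± 2.73, whose means lay within the summed SDs of its own. Bbc3 fell to 7.56 ± 1.44 in the same state. The ratio of Bax to Bcl2 per kb was 354, 412 and 483 in the EpiLC libraries, 153, 92.6 and 134 in aEpiLC and 182, 146 and 132 in pEpiLC. Every EpiLC library lay above the others in this ratio, and those of aEpiLC and pEpiLC overlapped.

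The other BCL-2 family genes were described from a list of 16, of which 12 are in the table. In pEpiLC against aEpiLC 4 of them passed the test, all lower in pEpiLC, where 15.6% of all genes tested passed and 9.30% were lower, and the median of the 12 was −0.48 against 0.01 over all genes tested. Mcl1, a prosurvival gene, was at 243, 241 and 258 CPM in aEpiLC and 145, 187 and 182 CPM in pEpiLC (log2 −0.53, SE 0.0986, edgeR adjusted p = 0.0130). Bcl2l1, which encodes BCL-XL, was also lower (log2 −0.61, adjusted p = 0.0179), as were the BH3-only genes Bmf (log2 −1.25, SE 0.139, adjusted p = 0.00151) and Hrk (log2 −1.52, SE 0.352, adjusted p = 0.0271). Hrk did not pass without aEpiLC replicate 2 or 3 or pEpiLC replicate 2 or 3, with edgeR adjusted p-values of 0.0590 to 0.0812. Bnip3 did not pass (log2 −0.85, adjusted p = 0.167), with overlapping libraries, but did without pEpiLC replicate 2 (log2 −1.34, edgeR adjusted p = 0.0349). The count of 4 was 1 without aEpiLC replicate 2 or aEpiLC replicate 3, which left Bmf, so Mcl1 and Bcl2l1 did not pass there either.

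Against EpiLC, 7 of the 12 passed in aEpiLC, 3 higher and 4 lower, and 4 passed in pEpiLC, all lower. Of all genes tested 46.6% (24.0% higher and 22.6% lower) and 44.2% (22.8% higher and 21.4% lower) passed in these comparisons. Mcl1, at 354, 324 and 329 CPM in EpiLC, was lower in both later states (log2 −0.44 and −0.95, edgeR adjusted p = 4.98e-05 and 0.000458). Hrk and Bnip3, which encodes a mitochondrial protein that also responds to hypoxia, were lower in aEpiLC (log2 −0.94 and −0.96, adjusted p = 0.00926 and 0.000510) and past 2-fold in pEpiLC (log2 −2.43 and −1.79, adjusted p = 0.000248 and 0.00477). Bok, an effector relative, and Bcl2l1 were higher in aEpiLC (log2 0.67 and 0.39, adjusted p = 8.00e-06 and 0.000709), and Bak1 was lower (log2 −0.30, adjusted p = 0.00380). Bmf had a log2 difference of 0.36 in aEpiLC (adjusted p = 0.0240), where its libraries overlapped those of EpiLC, and of −0.87 in pEpiLC (adjusted p = 0.00626), where they did not. The first did not pass without EpiLC replicate 1, EpiLC replicate 3 or aEpiLC replicate 1 (edgeR adjusted p = 0.0716 to 0.112) or with all 9 libraries in one fit (adjusted p = 0.0866). Without pEpiLC replicate 1 the count of 4 in pEpiLC was 7, 1 higher and 6 lower.

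**Figure D3:**
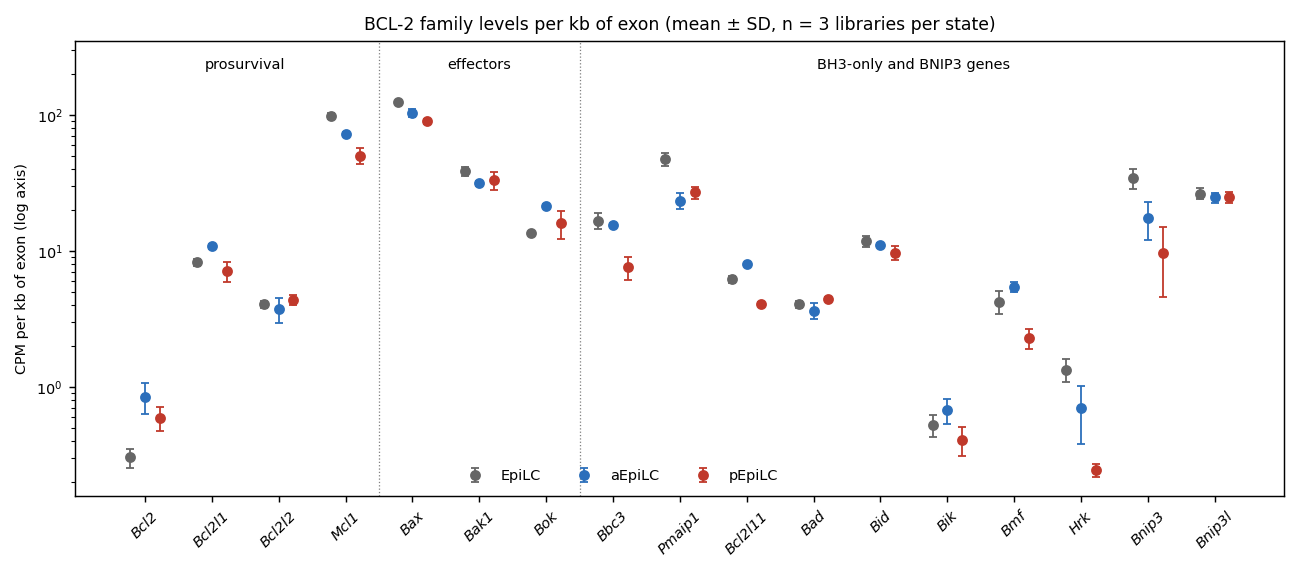
Mean level ± SD (n = 3 libraries per state) of the BCL-2 family genes, members and others, in CPM per kb of exon on a log axis, grouped by role. Mcl1 is the highest of the prosurvival genes and Bcl2 the lowest in all 3 states, and in pEpiLC Bbc3, Bcl2l11, Bmf and Hrk lie below both other states.

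The other targets of p53, a list of 35 genes that were all tested, were described to see whether they moved as Cdkn1a did. Between pEpiLC and aEpiLC 3 passed the test, 1 higher and 2 lower, with a median log2 difference of −0.02, where 15.6% of all genes tested passed. The higher one was Ddit4, which encodes an inhibitor of mTORC1 (log2 0.38, SE 0.0953, edgeR adjusted p = 0.0367). The kinase gene Plk3 was at 11.6, 10.1 and 11.7 CPM in aEpiLC and 4.82, 4.43 and 3.54 CPM in pEpiLC (log2 −1.38, SE 0.165, adjusted p = 0.00209), and Gadd45a, a growth arrest gene, was also lower (log2 −0.70, adjusted p = 0.0403). Without aEpiLC replicate 1, aEpiLC replicate 3, pEpiLC replicate 2 or pEpiLC replicate 3 the count was 1. This left Plk3, so Ddit4 and Gadd45a did not pass there. Without pEpiLC replicate 1 the count was 5, 2 higher and 3 lower.

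Against EpiLC, 19 of the 35 passed in aEpiLC, 12 higher and 7 lower, and 15 in pEpiLC, 11 higher and 4 lower, with medians of 0.12 in both. Of all genes tested 46.6% and 44.2% passed, so the counts of both directions together are near the background. By direction, 24.0% of all genes passed higher and 22.6% lower in aEpiLC, and 22.8% and 21.4% in pEpiLC. More of the targets that passed were higher than lower, and this split was not tested. Past 2-fold were 5 higher and 0 lower in aEpiLC, where 7.25% and 5.24% of all genes were. In pEpiLC 3 were higher and 1 lower, where 7.71% and 8.13% were. Perp, which encodes a membrane protein of desmosomes and apoptosis, was at 5.64, 6.08 and 5.58 CPM in EpiLC, 31.2, 21.2 and 31.4 CPM in aEpiLC and 37, 25 and 33.1 CPM in pEpiLC. It was higher by log2 2.28 in aEpiLC (SE 0.152, edgeR adjusted p = 1.03e-07) and 2.48 in pEpiLC (SE 0.163, adjusted p = 8.61e-05). Trp53cor1, the long noncoding RNA next to Cdkn1a known as lincRNA-p21, was higher by log2 2.32 and 2.62 (adjusted p = 8.60e-05 and 0.000851), at 0.381 ± 0.0881 CPM in EpiLC, 1.93 ± 0.241 in aEpiLC and 2.34 ± 0.510 in pEpiLC (SD, n = 3). Its EpiLC libraries were at 0.280, 0.424 and 0.439 CPM, so this fold rests on few counts, and requiring 10 counts in each library removed it from the comparisons with EpiLC. Fas, a death receptor gene, was higher by log2 1.94 and 2.93 (adjusted p = 0.00785 and 0.00272), from 0.0471 to 0.280 CPM in EpiLC, where 3 counts are 0.130 to 0.143 CPM, so its fold rests on few counts. Sfn and Btg2, both antiproliferative, passed 2-fold in aEpiLC (log2 1.40 and 1.08, adjusted p = 1.40e-08 and 2.58e-07). In pEpiLC they were higher by log2 0.91 and 0.82 (adjusted p = 0.0111 and 0.00134). Plk3 was lower in both (log2 −0.45 and −1.81, adjusted p = 0.00468 and 0.000202). Perp, Fas, Trp53cor1, Sfn and Btg2 did not pass between pEpiLC and aEpiLC. Sfn did without pEpiLC replicate 1 (log2 −0.28, edgeR adjusted p = 0.0191), and Fas did with edgeR's likelihood ratio test (adjusted p = 0.0325) and with at least 10 counts in every library (adjusted p = 0.0399). In the promoter search, 27 of the 35 had a window, and a match of at least 19 bases was found for 3 (11.1%), Gtse1, Polk and Rps27l, against 1.24% of the 27025 genes with a window, counting the best window of each gene.

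**Figure D4:**
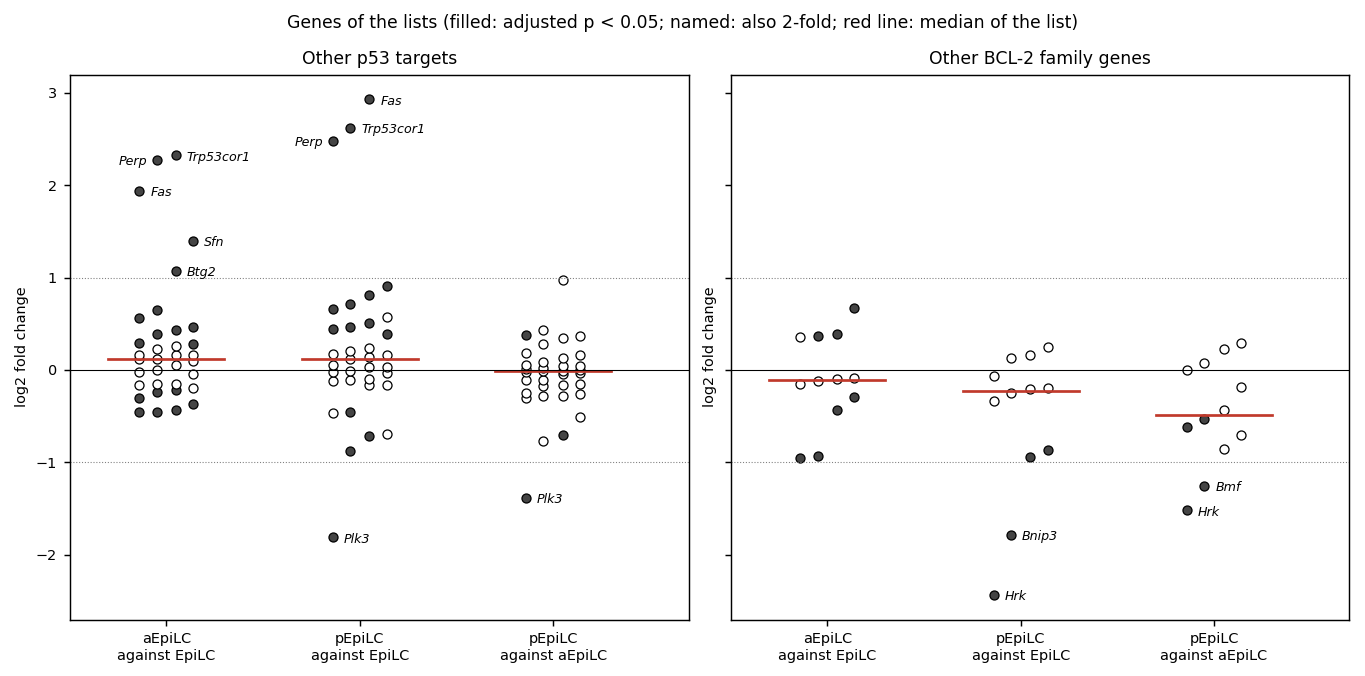
Log2 fold change (vertical axis) of every tested gene in the lists of 35 other p53 targets and of 12 other BCL-2 family genes in the 3 comparisons, with filled points for an adjusted p below 0.05, names for those also past 2-fold and a red line at the list's median. Between pEpiLC and aEpiLC 3 of the 35 targets are filled, Plk3 at −1.38 being the lowest, and the 4 filled BCL-2 family genes all lie below 0.

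Of 24 regulators and relatives of p53, 23 were tested and 0 passed the test and 2-fold in any comparison, where 12.5%, 15.8% and 7.29% of all genes tested did in aEpiLC against EpiLC, pEpiLC against EpiLC and pEpiLC against aEpiLC. Trp53bp1, whose product binds p53 and sites of DNA breaks, was the 1 that passed between pEpiLC and aEpiLC, where 15.6% of all genes tested did. It was at 196, 180 and 203 CPM in EpiLC, 263, 273 and 251 CPM in aEpiLC and 157, 160 and 164 CPM in pEpiLC (log2 −0.71, SE 0.0612, edgeR adjusted p = 0.000525), without overlap between states. In aEpiLC against EpiLC 11 passed, 5 higher and 6 lower, near the 46.6% of all genes. Hipk2, a kinase gene, had the largest rise (log2 0.86, adjusted p = 6.22e-05) and Cdkn2a the largest fall (log2 −0.99, adjusted p = 0.000484) among them. In pEpiLC against EpiLC 6 passed, 2 higher and 4 lower, where 44.2% of all genes did. Without aEpiLC replicate 3 the count of 11 was 17, and the count of 6 was 1 without EpiLC replicate 1 and 2 without EpiLC replicate 3. Without pEpiLC replicate 1 the counts were 9 against EpiLC and 2 against aEpiLC.

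In the further course of apoptosis, 22 genes of the apoptosome, caspases, death receptor adaptors and their inhibitors were tested. In aEpiLC 12 passed against EpiLC, 8 higher and 4 lower, where 46.6% of all genes tested passed, 24.0% higher and 22.6% lower. In pEpiLC 12 passed, 10 higher and 2 lower, where 44.2% of all genes did, 22.8% higher and 21.4% lower. Casp8, the initiator caspase of death receptors, and Cflar, whose product inhibits it, were both past 2-fold. Casp8 was at 1.87, 2.45 and 2.20 CPM in EpiLC, 6.57, 6.88 and 8.09 CPM in aEpiLC and 3.48, 7.34 and 7.40 CPM in pEpiLC, with pEpiLC replicate 1 between the EpiLC libraries and the rest. The log2 differences from EpiLC were 1.73 and 1.51 for Casp8 (edgeR adjusted p = 5.33e-06 and 0.00711) and 1.11 and 1.19 for Cflar (adjusted p = 6.43e-06 and 0.000633). Endog, which encodes a mitochondrial endonuclease, was lower in both states (log2 −0.99 and −0.95, adjusted p = 0.000676 and 0.00922), as was Htra2, which encodes a mitochondrial protease (log2 −0.60 and −0.58, adjusted p = 1.24e-05 and 0.00922). The count of 12 in pEpiLC was 7 without EpiLC replicate 2 or EpiLC replicate 3.

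Among 7 other inhibitors of cyclin-dependent kinases, 1 passed between pEpiLC and aEpiLC, 3 in aEpiLC against EpiLC and 1 in pEpiLC against EpiLC, where 15.6%, 46.6% and 44.2% of all genes tested passed. None showed a difference as large as that of Cdkn1a in pEpiLC. Cdkn1c, which encodes the related inhibitor p57, was at 17.5, 14.2 and 16.6 CPM in aEpiLC and 26.6, 20 and 22.3 CPM in pEpiLC (log2 0.51, SE 0.142, edgeR adjusted p = 0.0487). This count of 1 was 0 without any single aEpiLC library and without pEpiLC replicate 3. Against EpiLC, aEpiLC had higher Cdkn1b (log2 0.41, adjusted p = 0.00153) and lower Cdkn1c (log2 −0.69, adjusted p = 9.83e-05) and Cdkn2a (log2 −0.99, adjusted p = 0.000484). In pEpiLC Cdkn2a was lower than in EpiLC (log2 −0.78, adjusted p = 0.0340). That count of 1 was 0 without EpiLC replicate 1 or 3 or pEpiLC replicate 2 or 3, and 4 without pEpiLC replicate 1.

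The level of Cdkn1a was last set beside those of 10718 genes with a mean of at least 5 CPM. As a description over 9 libraries that share their states and depths, the Pearson correlation of log2 CPM was highest for Tmem185a at 0.990, Sdc1 at 0.989 and Msl1 at 0.989. Tmem185a was at 13.6 to 14.6 CPM in EpiLC, 18 to 20 CPM in aEpiLC and 49.3 to 78.1 CPM in pEpiLC, so that, like Cdkn1a, it was highest in pEpiLC replicate 1. Of the other 9 genes, Bbc3 had a correlation of −0.947, Bax −0.870, Bcl2l11 −0.809, Mdm2 −0.663 and Ccng1 0.513.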

How the data were processed

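The authors mapped paired-end reads of 150 bp to GRCm38 with STAR 2.7.9a and deposited RSEM 1.3.1 expected counts per gene symbol, without normalization. Read cleaning, annotation and strandedness are not given in the sources used here. Before testing, values were rounded to integers. Gene positions and exon lengths came from GENCODE vM21, in which 22803 symbols (97.2%) matched 1 gene.

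Each comparison used its own 6 libraries in R 4.3.3 with edgeR 4.0.16 (TMM, filterByExpr, quasi-likelihood test) and Benjamini-Hochberg adjustment over all genes tested. A gene passed at an adjusted p below 0.05, with 2-fold as a second limit. Alternatives were RLE size factors, DESeq2 1.42.0, edgeR's likelihood ratio test, limma 3.58.1 voom, 2 filters, all 9 libraries in one fit, a replicate block and leaving out each library. The procedure was also run on simulated counts in which fewer genes changed than passed here. No error rate for these data is drawn from that run. Total counts were 20560600 to 23417900 per library, and 3 counts correspond to 0.130 to 0.143 CPM.

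The genes, lists and tests were chosen with earlier results of these data known. Named were the 10 genes, list genes past 2-fold in any comparison, the 2 with the largest change in each direction among list genes that passed, and the 3 genes most like Cdkn1a, and a few others were chosen after their values were seen. The lists overlap at Mdm4, Ppm1d, Trp73, Apaf1 and Cdkn2a. One further gene of the lists is not reported here.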

Additional observations from a re-analysis of the deposited data

Results flagged for a closer look

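The changes of 3 genes from EpiLC differed between pEpiLC and aEpiLC, by edgeR's test of that difference, which is the comparison of pEpiLC with aEpiLC. The log2 difference was 1.40 for Cdkn1a (adjusted p = 0.000361), −1.04 for Bbc3 (adjusted p = 0.00364) and −0.96 for Bcl2l11 (adjusted p = 0.000290). For Cdkn1a both states lay above EpiLC, for Bbc3 pEpiLC alone passed the test against EpiLC, and for Bcl2l11 all 3 aEpiLC libraries lay above and all 3 pEpiLC libraries below those of EpiLC.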

How the results depend on the processing

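Of the log2 differences of the 10 genes under the alternatives, 399 kept their direction and side of the threshold, 2 gained the call, 9 lost it and 10 changed sign, and of those of list genes 442, 5, 8 and 3. Every sign change was at a gene that did not pass. Without 1 library at a time, Mdm2 in aEpiLC against EpiLC ranged from −0.18 to 0.024 (above 0 without aEpiLC replicate 2) and Trp53inp1 in pEpiLC against EpiLC from −0.087 to 0.28 (below 0 without pEpiLC replicate 3). In pEpiLC against aEpiLC, Ccng1 ranged from −0.10 to 0.041 (above 0 without aEpiLC replicate 1, pEpiLC replicate 1 or pEpiLC replicate 2), Trp53inp1 from −0.22 to 0.16 (above 0 without the same libraries), Casp8 from −0.41 to 0.044 (above 0 without pEpiLC replicate 1) and Cflar from −0.065 (below 0 without pEpiLC replicate 2 or aEpiLC replicate 3) to 0.17. Trp53inp1 in pEpiLC against aEpiLC was 0.0024 with RLE size factors and 0.0024 with DESeq2. The cause was not tested.

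Leaving out each library moved the counts of genes that passed as follows. In aEpiLC against EpiLC, members past 2-fold numbered 1 to 2 and p53 regulators 8 to 17. In pEpiLC against EpiLC, p53 regulators numbered 1 to 9, other BCL-2 family genes 4 to 7, caspases and their partners 7 to 15 and inhibitors of cyclin-dependent kinases 0 to 4. In pEpiLC against aEpiLC, members past 2-fold numbered 1 to 2, p53 targets 1 to 5, p53 regulators 1 to 2, other BCL-2 family genes 1 to 4, caspases and their partners 1 to 2 and inhibitors of cyclin-dependent kinases 0 to 1. For pEpiLC against aEpiLC, caspases numbered 2 with all 9 libraries in one fit, and inhibitors of cyclin-dependent kinases 0 with limma voom, with no filter and with at least 10 counts in every library. Cdkn1a in aEpiLC against EpiLC had an edgeR adjusted p of 0.0606 with all 9 libraries in one fit.

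The replicate numbers come from the labels, which do not say that they mark a shared culture or day. Deviations of same-numbered libraries from their state means correlated at 0.02, −0.06 and −0.06 in aEpiLC against EpiLC, 0.03, 0.03 and 0.02 in pEpiLC against EpiLC and 0.17, 0.12 and 0.06 in pEpiLC against aEpiLC, so the numbers were not taken as pairs, although in the last every library correlated best with its own number. With the replicate number as a block 6814, 5903 and 2464 genes passed, against 7130, 6759 and 2369, and the members that passed numbered 6, 7 and 3, Ccng1 in pEpiLC against EpiLC having an edgeR adjusted p of 0.0604. Bnip3 in pEpiLC against aEpiLC passed under the block (log2 −0.93, edgeR adjusted p = 0.00927). With 3 libraries per state, smaller differences than those called cannot be told from no difference. Fas in EpiLC, at 0.0471 to 0.280 CPM, lies around the 0.130 to 0.143 CPM that 3 counts give.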
